A study of Mus musculus with 6 samples.

Results

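The genes described here are 8 transcription factors by which somatic motor neurons are recognised: the progenitor factors Olig1 and Olig2, the LIM homeodomain factors Lhx3, Lhx4 and Isl2, the homeodomain factor Mnx1, and the factors Foxp1 and Pou3f1, known from motor neuron subtypes. A gene was taken through every probe set to which the platform's probe table gives exactly 1 symbol. All 8 were measured, by 18 of 45037 probe sets, and they are 8 of 18193 named genes. Where a gene had several probe sets, the probe set with the highest mean over all 6 arrays stands for it, and the others are given beside it.

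The measurements come from mouse embryos at E10.5, from GFP-positive cells sorted out of dissected hindbrains, with the embryos of whole litters pooled for each sample. In swap embryos (n = 3 arrays) the Hoxb1 locus made a paralogous Hox protein, and in control embryos (Hoxb1-IRES-tauGFP, n = 3 arrays) it made the normal Hox-B1 protein. Both genotypes carried the IRES-tauGFP tag at that locus, so the sort took whichever cells had the locus active, and the labels call the tissue rhombomere 4. The 3 samples of a genotype are independent biological replicates per the series design, whether the embryos carried 1 or 2 copies of the altered locus is not given in the sources used here, and the comparison asks how the swap of the Hox protein bears on transcript levels.

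Somatic motor neurons innervate the skeletal muscles of the trunk, limbs, tongue and eyes. They arise from Olig2-expressing progenitors of the ventral neural tube under Hedgehog signalling, and as they leave the cell cycle Isl1 and Lhx3 join through the adaptor Ldb1 into a complex that activates Mnx1 and other motor neuron genes. In the mouse hindbrain, the somatic motor neurons of the abducens and hypoglossal nuclei form in segments behind rhombomere 4. Rhombomere 4 itself gives rise to branchiomotor neurons of the face and to visceral motor neurons, which form without Mnx1 and Lhx3. The 8 genes are thus taken here as markers of a neighbouring motor identity, but not all of them mark it alone. At least Lhx3, Olig1, Olig2, Foxp1 and Pou3f1 are also used by other cell types.

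At the gene level none of the 8 differed between the genotypes beyond the spread between arrays. By limma, which fits each probe set with a variance steadied over all of them, 0 of 18 probe sets had a Benjamini-Hochberg adjusted p under 0.05, against 0% of all 45037 probe sets, among which the lowest adjusted value was 0.260. Before adjustment, 1 of 18 had a p under 0.05, a dim Foxp1 probe set, against 4.57% of all probe sets. At the gene level 3 of 8 were higher and 5 lower in swap arrays, with a median log2 difference (swap minus control) of -0.24, against 0.01 over all 18193 genes. Swap and control arrays overlapped for all 8 genes. Of all genes, 4.3% had every swap array above every control array and 4.55% had every swap array below. With shares this small, the overlap of all 8 does not set them apart from other genes. In bulk RNA from sorted cells, fewer cells of a type and less RNA per cell cannot be told apart.

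What could be seen differed from gene to gene. Lhx3, Lhx4, Isl2, Foxp1 and Pou3f1 lay at or above the median level of all probe sets, a log2 intensity of 6.83, and Mnx1, Olig1 and Olig2 lay below it. The median standard error of a log2 difference was 0.282 above that level and 0.731 below it. Through the probe set that stands for the gene, the whole 95% interval was inside 2-fold in either direction for Lhx4, Foxp1 and Pou3f1. For the other 5 genes it reached further. Over all 18 probe sets of the members it was inside 2-fold for 5. It reached further on the second probe sets of Lhx4 (-1.22 to 0.90) and Pou3f1 (-1.29 to 0.79) and on 5 of the 8 of Foxp1. A probe set's intensity also depends on how well its probes bind, so the genotypes are compared within the same probe set. The median level of all probe sets serves below as a divide between brighter and dimmer probe sets, not as a measure of transcript amount. The deposited table has no detection calls, and so none of the dim probe sets could be called absent. Hoxb1 itself read 12.54, 12.06 and 11.78 in swap arrays 1, 2 and 3 and 12.67, 12.68 and 12.55 in control arrays 1, 2 and 3. Its 1 probe set has no known place in the transcript here, so these values do not check the genotype labels.

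**Figure D1:**
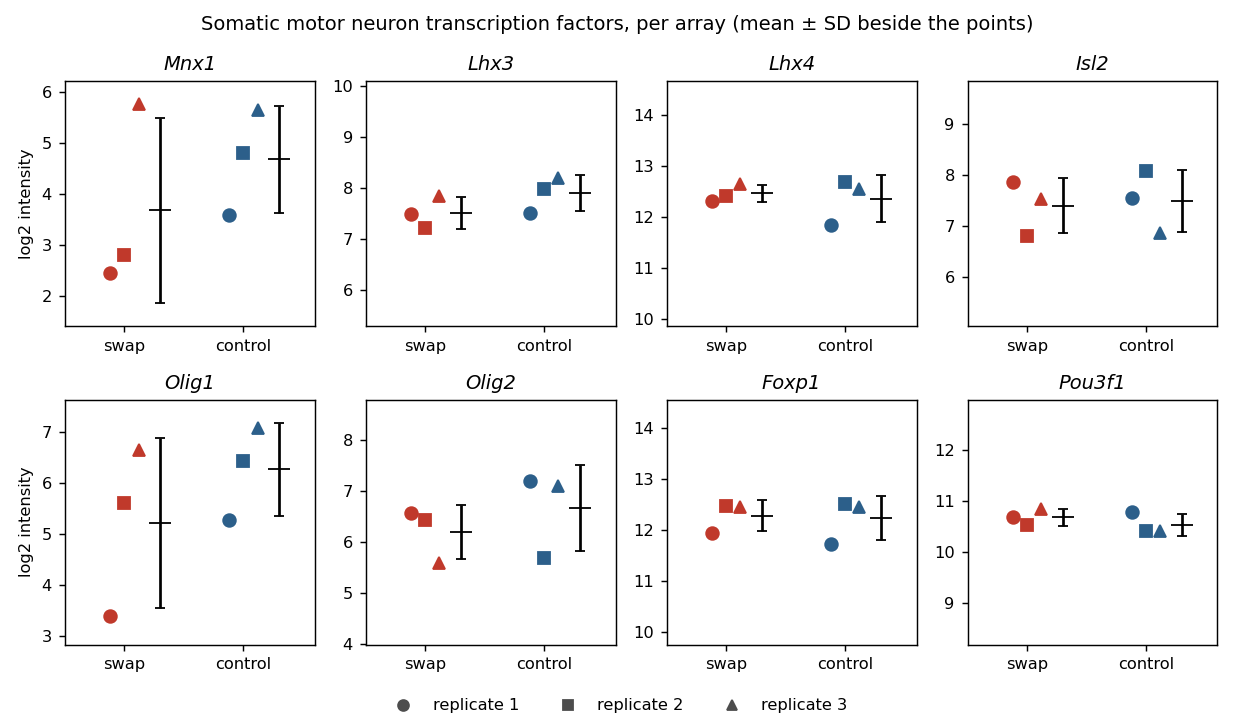
Log2 intensity of the probe set that stands for each of the 8 genes, 1 point per array, with the mean and SD of each genotype (n = 3) beside the points; every panel spans the same height on the log2 scale, though not the same levels. The points of Mnx1, Olig1 and Olig2 are spread widely, those of Pou3f1 lie between 10.42 and 10.86, and in no panel do the genotypes separate.

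The start region of Lhx4 and 1 of the 3 start regions of Foxp1 are shown, the only member windows to hold a searched motif. The probe sets that stand for both genes were low on the replicate 1 arrays of each genotype, as described further on. A link between those values and the motifs was not tested. The windows run from 250 bases before to 50 bases after an annotated start (RefSeq, GRCm38.p6), and 9 windows of 6 members were found, for Lhx3, Lhx4, Mnx1, Foxp1, Isl2 and Olig2. Olig1 and Pou3f1 were not matched. On both strands, 2 motifs were searched: TGATNNAT, the composite form bound by Hox and Pbx proteins together, and TAATTA, a core bound by many homeodomain proteins, LIM factors among them. The Hox and Pbx motif was found in 1 of 9 member windows, that of Lhx4, starting 220 bases before the start, and in 8.85% of all 32851 windows. TAATTA was found in 1 of 9, at 1 of the 3 Foxp1 starts, 240 bases before it, and in 5.29% of all windows. Capitals mark the match, which for Lhx4 reads on the opposite strand. A match describes the letters in the window, and binding was not measured here.
Lhx4, chr1:155741978-155742277, minus strand: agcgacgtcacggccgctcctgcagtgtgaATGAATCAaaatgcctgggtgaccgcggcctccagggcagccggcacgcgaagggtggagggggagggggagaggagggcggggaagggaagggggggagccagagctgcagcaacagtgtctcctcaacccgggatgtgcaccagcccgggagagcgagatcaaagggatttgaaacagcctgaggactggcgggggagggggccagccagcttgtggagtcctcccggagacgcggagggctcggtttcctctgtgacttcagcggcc
Foxp1, chr6:99266466-99266765, minus strand: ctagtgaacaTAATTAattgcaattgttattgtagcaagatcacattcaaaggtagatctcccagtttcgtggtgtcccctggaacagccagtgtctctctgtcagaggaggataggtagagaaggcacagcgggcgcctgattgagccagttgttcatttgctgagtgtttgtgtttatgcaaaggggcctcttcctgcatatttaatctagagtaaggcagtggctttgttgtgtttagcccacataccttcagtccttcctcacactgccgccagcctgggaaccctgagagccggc

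Olig1 and Olig2 are bHLH factors of the motor neuron progenitor domain, and later of the oligodendrocyte lineage that the same domain produces. Olig2, which is required to make somatic motor neurons, had 1 probe set, with log2 intensities of 6.57, 6.43 and 5.59 in swap arrays 1, 2 and 3 and of 7.20, 5.69 and 7.09 in control arrays 1, 2 and 3. The lowest value was in swap array 3, but control array 2 lay below swap arrays 1 and 2, so the groups overlapped. The difference was -0.47 (SE 0.52, 95% interval -1.75 to 0.81, adjusted p = 1.00 in limma), and the value depended on single arrays: without control array 2 it was -0.95, without control array 1 -0.20, without control array 3 -0.25 and without swap array 3 -0.16.

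Olig1 spanned 3.70 over the 6 arrays, more than any other of the 8 genes. Its log2 intensities were 3.38, 5.61 and 6.64 in swap arrays 1, 2 and 3 and 5.28, 6.43 and 7.08 in control arrays 1, 2 and 3. Array 1 was the lowest and array 3 the highest in both genotypes, with a span of 3.26 among swap arrays and 1.81 among control arrays, wider than the difference between the means of -1.05 (SE 0.94, 95% interval -3.36 to 1.26, adjusted p = 1.00 in limma). Without swap array 1 the difference was -0.14, and without swap array 3 it was -1.77. Adding 64 to each intensity, which damps dim probe sets, gave -0.39. Markers of the oligodendrocyte lineage, taken as another source of these factors, had 0 of 6 measured members past the test and a median difference of -0.05. The summed intensity of that list was 2121 to 3285 in swap arrays and 2343 to 3236 in control arrays, with Sox10, also a neural crest factor, at a difference of 0.09 (SE 0.38), the growth factor receptor Pdgfra at -0.31 (SE 0.47) and the proteoglycan Cspg4 at -0.18 (SE 0.22).

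Lhx3 and Lhx4 are closely related LIM homeodomain factors that are needed together for ventrally exiting motor neurons, and Lhx3 with a different partner set also specifies V2 interneurons. Lhx3 stood at 7.48, 7.21 and 7.83 in swap arrays 1, 2 and 3 and at 7.51, 7.98 and 8.19 in control arrays 1, 2 and 3. Swap arrays 1 and 2 lay below all control arrays, and swap array 3 lay above control array 1. Among the 8 genes Lhx3 had the smallest unadjusted p (0.242), with a difference of -0.39 (SE 0.30, 95% interval -1.12 to 0.35, adjusted p = 1.00 in limma) and an exact two-sided permutation p of 0.2, where 3 against 3 arrays allow no p below 0.1. Leaving out any 1 array gave -0.58 to -0.24. The second Lhx3 probe set, below the median level, had a difference of 0.00 (SE 0.56), with 5.35 to 6.28 in swap arrays and 4.65 to 6.43 in control arrays, so it did not repeat the lower swap values of the brighter one.

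V2 interneuron genes, which would mark the other use of Lhx3, had 0 of 6 measured members past the test, with 3 higher and 3 lower in swap arrays and a median difference of -0.04. The list's summed intensity was 1294 to 2022 in swap arrays and 1178 to 2409 in control arrays. Vsx1, a homeodomain factor of V2 cells, stood at 6.03, 6.23 and 7.82 in swap arrays and at 3.39, 7.44 and 7.49 in control arrays, a difference of 0.59 (SE 1.24). Sox14 differed by 1.31 (SE 0.46, unadjusted p = 0.0306, adjusted p = 1.00 in limma) below the median level, and Foxn4, which starts the V2 programme, by -0.32 (SE 0.49). Their part in the Lhx3 values was not tested.

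Lhx4 gave different array patterns through its 2 probe sets. The brighter one stood at 12.31, 12.42 and 12.65 in swap arrays 1, 2 and 3 and at 11.84, 12.69 and 12.55 in control arrays 1, 2 and 3. Control array 1 was the lowest of the 6 and control array 2 the highest. The difference was 0.10 (SE 0.30, 95% interval -0.65 to 0.85, adjusted p = 1.00 in limma), and without control array 1 it was -0.16. On the dimmer probe set control array 1 was instead the highest and control array 2 the lowest, with 7.29, 6.86 and 6.44 in swap arrays 1, 2 and 3 and 7.55, 6.26 and 7.25 in control arrays 1, 2 and 3. Its difference was -0.16 (SE 0.43). The brighter probe set was designed on an expressed sequence tag and the dimmer one on the RefSeq transcript, per the accessions of the probe table, and their places in the transcript are not known here, so which of them follows the Lhx4 messenger RNA was not tested.

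Isl2, the LIM homeodomain factor that follows Isl1 in newborn somatic motor neurons, had 1 probe set. It stood at 7.86, 6.81 and 7.53 in swap arrays 1, 2 and 3 and at 7.55, 8.07 and 6.85 in control arrays 1, 2 and 3. The ranges of the genotypes covered nearly the same span, with the lowest value in swap array 2 and the highest in control array 2. The difference was -0.09 (SE 0.44, 95% interval -1.17 to 0.99, adjusted p = 1.00 in limma), and it turned to 0.20 without swap array 2 and also without control array 2.

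Mnx1 is the homeodomain factor that holds postmitotic somatic motor neurons apart from V2 interneurons. Its 1 probe set was dim on every array, at 2.45, 2.81 and 5.76 in swap arrays 1, 2 and 3 and at 3.58, 4.80 and 5.65 in control arrays 1, 2 and 3. On the linear scale these are intensities of 5.48, 7.01 and 54.1 in swap arrays and of 11.9, 27.8 and 50.2 in control arrays, where the median level of all probe sets is 114. Array 3 was the highest in both genotypes and array 1 the lowest. The difference of -1.0 (SE 1.02, 95% interval -3.53 to 1.53, adjusted p = 1.00 in limma) was -0.39 without swap array 1, -2.04 without swap array 3 and -0.15 with 64 added to each intensity.

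Posterior Hox genes, which would mark cells from the spinal cord or the hindmost hindbrain where somatic motor neurons form, had 0 of 8 measured members past the test and 2 at or above the median level. Their summed intensity was 645 to 772 in swap arrays and 810 to 892 in control arrays, so the groups did not overlap in that sum. Among the sums of the 13 lists of other genes, 1 lay wholly below in swap arrays, this one, and 1 wholly above, that of the endothelial list. The members went both ways, with 3 higher and 5 lower in swap arrays and a median difference of -0.37. Hoxc5 differed by -1.38 (SE 0.58), Hoxb5 by -0.25 (SE 0.86) and Hoxa5, at or above the median level, by 0.03 (SE 0.26). The 2 others on the higher side, named after their values were seen, were Hoxc9 at 1.63 (SE 0.76), the largest difference of the list in size, and Hoxb6 at 0.59 (SE 0.70), both below the median level. The others on the lower side, also named after their values were seen, were Hoxc6 at -0.66 (SE 0.36), Hoxb9 at -1.58 (SE 0.61) and Hoxc8 at -0.49 (SE 0.35). Of these Hoxc6 lay at or above the median level. For Hoxc6 and Hoxb9 every swap array lay below every control array, as for 4.55% of all genes. Whether this sum bears on the lower mean values of Mnx1, Lhx3, Olig1 and Olig2 was not tested.

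**Figure D2:**
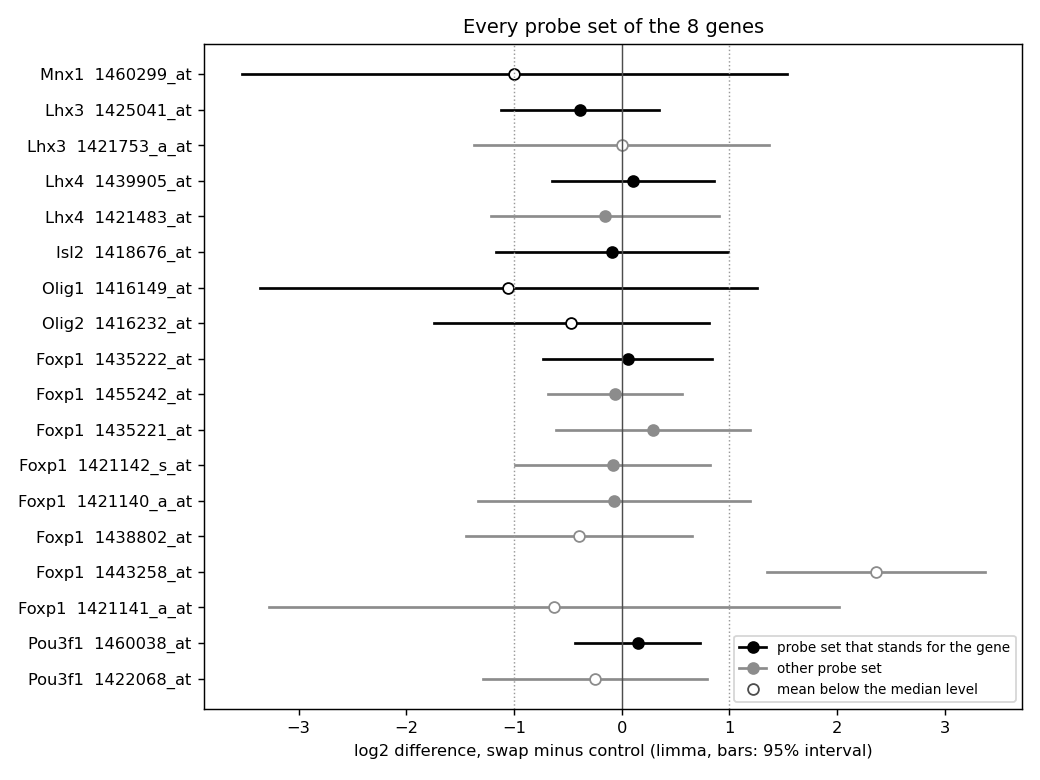
Log2 difference, swap minus control, of all 18 probe sets of the 8 genes with the 95% interval from limma; black marks the probe set that stands for its gene, grey the others, and open points lie below the median level. The interval of 17 probe sets takes in 0, and that of the dim Foxp1 probe set 1443258_at runs from 1.35 to 3.38.

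Foxp1, a forkhead factor that acts with Hox proteins to set motor column identity in the spinal cord, had 8 probe sets, 5 of them at or above the median level. The probe set that stands for the gene read 11.94, 12.46 and 12.44 in swap arrays 1, 2 and 3 and 11.73, 12.50 and 12.44 in control arrays 1, 2 and 3. Array 1 was the low one in both genotypes, and arrays 2 and 3 of both genotypes lay within 0.06 of each other. The difference was 0.05 (SE 0.32, 95% interval -0.73 to 0.84, adjusted p = 1.00 in limma), and it was -0.19 without control array 1, -0.035 without swap array 2 and -0.028 without swap array 3. The 2 other probe sets built on the same expressed sequence tag had differences of -0.06 (SE 0.25) and 0.29 (SE 0.36), with array 1 lowest in both genotypes again.

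The remaining 5 Foxp1 probe sets were built on other sequences, and 4 of them had differences of -0.63 to -0.07 with overlapping groups. The fifth, 1443258_at, built on another expressed sequence tag, stood at 6.45, 5.31 and 5.09 in swap arrays 1, 2 and 3 and at 3.26, 3.40 and 3.09 in control arrays 1, 2 and 3. It was the 1 of the 18 probe sets whose groups did not overlap: 4.11% of all probe sets had every swap array above every control array, and 4.73% had every swap array below. On the linear scale it read 87.5, 39.5 and 34.0 in swap arrays and 9.61, 10.54 and 8.52 in control arrays, all below the median level of 114. The difference was 2.36 (SE 0.41, 95% interval 1.35 to 3.38, higher in 3 of 3 swap arrays). In all, 145 of 45037 probe sets, this one among them, were higher in swap arrays by at least as much, and equally large lower ones were not counted. The difference of 1443258_at did not pass limma's test (unadjusted p = 0.00136, adjusted p = 0.489, and 0.416 to 1.00 over 13 alternatives), and with 64 added to each intensity it was 0.65. The other 7 Foxp1 probe sets had a median difference of -0.07, and where 1443258_at lies in the gene is not known here.

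**Figure D3:**
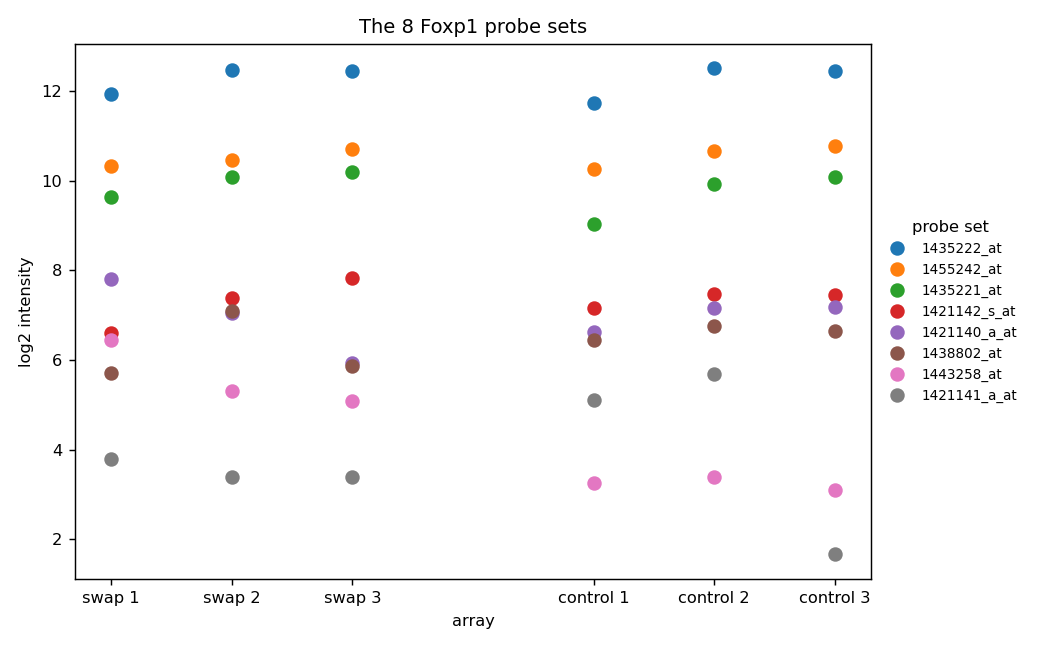
Log2 intensity of the 8 Foxp1 probe sets on each swap and control array, 1 colour per probe set. Probe set 1443258_at reads 5.09 to 6.45 on swap arrays and 3.09 to 3.40 on control arrays, while the groups of the other 7 overlap.

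Pou3f1, a POU factor of a subset of spinal motor neurons and of neural progenitors and Schwann cells, was the member with the narrowest spread. It stood at 10.68, 10.52 and 10.86 in swap arrays 1, 2 and 3 and at 10.79, 10.42 and 10.42 in control arrays 1, 2 and 3. All 6 arrays lay within 0.44 of each other, and control array 1 lay above swap arrays 1 and 2. The difference was 0.15 (SE 0.23, 95% interval -0.43 to 0.73, adjusted p = 1.00 in limma), and leaving out any 1 array gave 0.06 to 0.27. The second probe set, below the median level, had a difference of -0.25 (SE 0.42), with 4.10 to 5.53 in swap arrays and 5.0 to 5.33 in control arrays.

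The array with replicate number 1 was low in both genotypes for several members, though not on each of their probe sets. Both replicate 1 arrays lay below the other 4 arrays for 6 of the 18 probe sets, 4 of them among the 8 of Foxp1. On the second Lhx4 probe set array 1 was instead the highest in both genotypes. Through the probe set that stands for the gene, this was so for Lhx4, Foxp1 and Olig1. For these 3 of 8 genes both replicate 1 arrays lay below the other 4 arrays, as they did for 11.8% of all 18193 genes. The same held for 16 of the 103 genes of the other lists, which is 15.5%. Among the marker lists these were 3 of 7 branchial mesenchyme markers, 3 of 8 neuronal markers, 1 of 8 progenitor markers, 1 of 7 endothelial markers, 1 of 6 V2 interneuron markers, and 0 of the macrophage, oligodendrocyte and posterior Hox markers. Among the pathway lists they were 3 of 10 progenitor domain genes, 2 of 6 family relatives, 1 of 10 LIM partners, 1 of 13 downstream genes and 0 of 9 branchiovisceral factors. Prrx1, a mesenchymal factor, stood at 8.48, 10.23 and 9.83 in swap arrays 1, 2 and 3 and at 8.16, 10.82 and 10.40 in control arrays 1, 2 and 3. The mesenchyme list summed to an intensity of 4021 to 5469 in swap arrays and 4572 to 5815 in control arrays, with 0 of 7 past the test, Twist1 at a difference of -0.23 (SE 0.29) and Dlx5 at 0.29 (SE 0.32). The 3′ minus 5′ log2 signal of the Actb control probe sets was 2.92, 2.51 and 2.45 in swap arrays 1, 2 and 3 and 2.67, 2.57 and 2.41 in control arrays 1, 2 and 3, highest in array 1 of each genotype. For Gapdh it was 1.93, 1.23 and 1.35 in swap arrays 1, 2 and 3 and 1.34, 1.42 and 1.28 in control arrays 1, 2 and 3, highest in swap array 1. The part of cell mixture or RNA quality in the members' values was not tested. Without both replicate 1 arrays Lhx4 differed by -0.08, Foxp1 by -0.02 and Olig1 by -0.63, again with 0 of 8 genes past the test.

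Foxp1 is also made by macrophages and endothelial cells, and the part of such cells in its values was not tested. The macrophage list summed to 2358, 4587 and 4054 intensity units in swap arrays 1, 2 and 3 and to 594, 16316 and 1429 in control arrays 1, 2 and 3. Of 7 macrophage markers 0 passed, with 5 higher and 2 lower in swap arrays. The receptor Csf1r had a difference of 1.12 (SE 1.57), C1qb one of 0.61 (SE 1.36) and C1qa one of 1.25 (SE 1.51). The lower 2, named after their values were seen, were Aif1 at -2.498 (SE 1.17), the largest difference of the list in size, and Cx3cr1 at -0.34 (SE 1.03). The endothelial list summed to 596 to 653 in swap arrays and to 418 to 539 in control arrays, without overlap, as was so for 2 of the 13 sums. Of its 7 markers 0 passed, 6 were higher and 1 lower, and 1 lay at or above the median level, with Pecam1 at 0.63 (SE 0.61), Cdh5 at 0.18 (SE 0.52) and Kdr at 1.12 (SE 0.93).

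Isl1 and Tbx20, both used by motor neurons, lay above the median level of all probe sets on all 6 arrays. The cholinergic genes Chat, Slc18a3 and Slc5a7, described further on, averaged below it. Which cells in the sort made these transcripts was not tested. Isl1, which joins both the somatic and the branchiomotor programme, averaged 13.84 ± 0.17 in swap arrays and 13.71 ± 0.07 in control arrays (SD, n = 3 each). The branchiomotor T-box factor Tbx20 averaged 13.60 ± 0.28 in swap arrays and 13.41 ± 0.12 in control arrays (SD, n = 3 each). Among the 10 partners of LIM factors 0 passed, with a median difference of 0.02 and all 10 at or above the median level. The adaptor Ldb1 differed by -0.11 (SE 0.38). Its relative Ldb2 differed by 0.33 (SE 0.20), with 8.40, 8.44 and 8.43 in swap arrays and 8.19, 8.05 and 8.04 in control arrays. The groups of Ldb2 did not overlap, and limma's adjusted p was 1.00.

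The genes that pattern the motor progenitor domain also had 0 of 10 members past the test, with 6 higher and 4 lower in swap arrays and a median difference of 0.06. Nkx6-1 and Nkx6-2, homeodomain factors that open the ventral domain to motor neuron fate, differed by 0.21 (SE 0.27) and 0.06 (SE 0.20), and Pax6, which sets its ventral limit, by -0.18 (SE 0.23). Of the 9 measured branchiovisceral motor factors 0 passed, 2 were higher and 7 lower, and the median difference was -0.29. Phox2a, a homeodomain factor of branchiomotor and visceral motor neurons, stood at 9.10, 8.70 and 8.52 in swap arrays and at 9.12, 9.74 and 8.96 in control arrays, a difference of -0.50 (SE 0.31), and Tbx2 differed by -0.16 (SE 0.28). For 3 of the 9, Hoxb1, Gata2 and Gata3, every swap array lay below every control array, as for 4.55% of all genes. The GATA factors, named after their values were seen, differed by -0.79 (SE 0.46) for Gata2 and -0.42 (SE 0.25) for Gata3, each with an adjusted p of 1.00 in limma. Gata2 stood at 12.70 in control array 1 and at 10.83 to 11.26 on the other 5 arrays, and without control array 1 its difference was -0.30.

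Downstream genes of motor neurons (13 measured) had 10 members higher and 3 lower in swap arrays, a median difference of 0.41 and 0 past the test. The cholinergic genes were dim and spread widely. Chat, which makes acetylcholine, differed by 1.12 (SE 1.00), the vesicular transporter Slc18a3 by 1.33 (SE 1.06) and the choline transporter Slc5a7 by -0.28 (SE 1.49). Of the 6 relatives of the members by family 0 passed, with a median difference of 0.10. Olig3, which acts in dorsal progenitors, differed by 0.66 (SE 0.39), Foxp2 by -0.24 (SE 0.49) and Foxp4 by -0.38 (SE 0.32).

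General progenitor and neuronal genes were more tightly measured than the somatic factors. All 8 progenitor markers and all 8 neuronal markers had a 95% interval within 2-fold, against 3 of the 8 somatic factors and 43.4% of all genes, and 0 of either list passed. These groups were not matched for level. All 8 genes of either list lay at or above the median level, against 5 of the 8 somatic factors, and 3 of those 5 were within 2-fold. The progenitor factor Sox2 differed by -0.04 (SE 0.20), Nes by 0.07 (SE 0.23) and Vim by 0.02 (SE 0.20). The neuronal tubulin Tubb3 differed by 0.19 (SE 0.26), Stmn2 by 0.06 (SE 0.24) and Elavl3 by 0.11 (SE 0.26).

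Over the 13 lists of other genes, 103 of 108 listed genes had a probe set used here and 0 passed limma's test. At an unadjusted p under 0.05 there were 5, which is 4.85%, near the 4.57% of all probe sets. Of the 103 genes 5.83% had every swap array above every control array and 6.80% had every swap array below, against 4.3% and 4.55% of all genes. These 5, named after their values were seen save for Sox14, were Sox14, the Hedgehog target Gli1 (1.86, SE 0.74) and the GDNF co-receptor Gfra1 (0.53, SE 0.21), all higher in swap arrays, and the myelin factor Myrf (-2.45, SE 0.82) and Hoxb9 (-1.58, SE 0.61), both lower. Of these 5, Gfra1 lay at or above the median level.

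For the 5 members at or above the median level, the closest of the other 11167 genes at that level were found by the root mean square difference of centred log2 values over the 6 arrays. For Foxp1 these were Ctnnd2, Mllt6 and Smurf1, at 0.046, 0.049 and 0.078, where the median over all genes was 0.39. For Lhx4 they were Slc38a7, Slamf6 and Cox19, at 0.055 to 0.061, against a median of 0.38. Lhx3 was closest to Agmat, Bbs9 and Per3, at 0.053 to 0.072, and Pou3f1 to Tacc2, Zbtb2 and Apba1, at 0.047 to 0.063. The nearest genes to Isl2 were farther off, with Sohlh1 at 0.128, Tmem167b at 0.160 and Higd1b at 0.164. No other member was among these nearest genes. With 6 arrays and 11167 candidates, such likeness is a description of genes that share the same arrays.

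**Figure D4:**
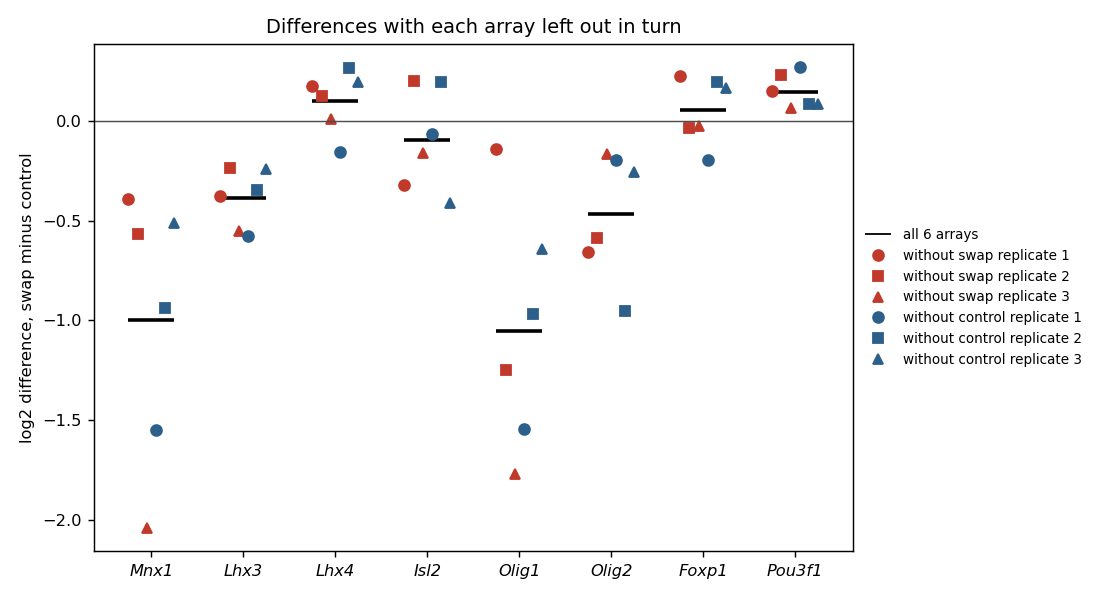
Log2 difference of each of the 8 genes, swap minus control, with all 6 arrays (black line) and with each array left out in turn (points, coloured by the genotype of the array left out). Lhx3, Mnx1, Olig1 and Olig2 stay below 0 and Pou3f1 above it, while Lhx4, Isl2 and Foxp1 take both signs.

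Leaving out single arrays did not bring any of the 8 genes past the test. The signs of Lhx4, Isl2 and Foxp1 changed with the array left out, with ranges of -0.16 to 0.27 for Lhx4, -0.41 to 0.20 for Isl2 and -0.19 to 0.23 for Foxp1. Mnx1 and Olig1 kept a negative sign over ranges of -2.04 to -0.39 and -1.77 to -0.14. None of these 5 differences had passed with all 6 arrays.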

How the data were processed

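RNA of the sorted cells was measured on 6 Affymetrix Mouse Genome arrays after amplification and biotin labelling, per the labels. The authors deposited linear intensities, 1 per probe set and array. The submitters' processing notes name affy, with the version, background correction and summary method not given in the sources used here. On each array the deposited intensities had a trimmed mean (2% at each end) of 500, and array medians were 118 to 139. The number of arrays limits the precision.

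No offset was added before log2, and 64 array control probe sets were left out. limma 3.58.1 (R 4.3.3) was fitted to 45037 probe sets with lmFit and eBayes, without covariates, and the two-sided p were adjusted by Benjamini-Hochberg at a threshold of 0.05. On simulated data with planted differences, the median estimates of the fit were checked against the planted sizes. Its power and its false calls are not reported here. The p-values measure the spread between pooled litters. The platform's probe table gave exactly 1 symbol to 34945 probe sets.

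The members and the lists were chosen with earlier results of these data known. All members are named, and of each other list the first 3 measured genes in list order. The gene of the inserted Hox protein is not reported here, and scan dates were not used here. Alternatives were a replicate block, a fit without dim probe sets (mean under the median level), quantile normalization, centring on array medians, trend and robust priors, array weights, an offset of 64, averaged probe sets per gene, and leaving out arrays.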

Additional observations from a re-analysis of the deposited data

How the results depend on the processing

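The count of probe sets past limma's test was 0 under all 15 alternatives (smallest adjusted p 0.241, and 801 to 2375 at an unadjusted p under 0.05, the lowest with 1 value per gene), and 0 members and 0 genes of the other lists passed. Of 117 gene-level values of the members under the alternatives 107 kept their direction and 10 turned, all in differences that had not passed, and over all 18 probe sets 221 of 252 kept it and 31 turned. The filter at the median level left no value for Mnx1, Olig1 and Olig2. The cause of the turns was not tested.

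With the mean of a gene's probe sets Lhx4 was at -0.027 and Pou3f1 at -0.052. Without both replicate 1 arrays Lhx4 was at -0.084, Foxp1 at -0.023, Foxp1 1421142_s_at at 0.15, Pou3f1 1422068_at at 0.22 and Lhx3 1421753_a_at, which is 0.00 with all arrays, at 0.38. The last was at 0.053 with quantile normalization, 0.030 with median centring and 0.063 with array weights. With 1 array left out the ranges that took in both signs were -0.16 to 0.27 for Lhx4, -0.41 to 0.20 for Isl2, -0.19 to 0.23 for Foxp1, -0.56 to 0.33 for Lhx3 1421753_a_at, -0.53 to 0.11 for Lhx4 1421483_at, -0.033 to 0.49 for Foxp1 1435221_at, -0.21 to 0.044 for Foxp1 1455242_at, -0.36 to 0.25 for Foxp1 1421142_s_at, -0.505 to 0.42 for Foxp1 1421140_a_at, -1.87 to 0.14 for Foxp1 1421141_a_at and -0.54 to 0.18 for Pou3f1 1422068_at.

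Same-numbered arrays of the genotypes had correlations of their deviations of 0.234, 0.031 and 0.224. Arrays of unlike number had -0.287 to 0.123, with swap array 2 at 0.039 against control array 1. The labels state no shared litter or day for a number, so the numbers were not taken as pairs in the main fit. With the replicate number as a block the count of probe sets past limma's test was 0, with 2323 at an unadjusted p under 0.05 against 2060 without it. The block lowered the SE of Olig1 from 0.94 to 0.39, of Mnx1 from 1.02 to 0.50 and of Foxp1 from 0.32 to 0.22. Those of Lhx3 and Lhx4 fell to 0.265 each, while those of Isl2, Olig2 and Pou3f1 rose, to 0.49, 0.53 and 0.24. At the gene level the smallest adjusted p of a member was then 0.940 in limma.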
